A study of Mus musculus with 4 samples.

Results

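The cytosolic ribosomal protein genes were followed through single-cell RNA sequencing of fetal mouse cells. Members were all genes whose symbols have the form Rpl or Rps with a number, and Rpsa, Rplp0, Rplp1 and Rplp2, which gave 80 of the 31053 genes measured. Of these, 49 encode proteins of the large ribosomal subunit and 31 proteins of the small subunit. The pattern does not take in genes of ribosomal proteins with other symbols, such as Fau, Rack1 and Rps3a1, which are counted among the partners, and it does take in some tissue-restricted paralogs. In all, 79 members had UMIs, unique molecular identifiers that each count 1 captured transcript end, and Rpl10l, known as a testis-expressed copy of Rpl10, had none.

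The ribosome is the machine that reads messenger RNA into protein, and each ribosome carries 1 copy of nearly all of these proteins around its ribosomal RNA core. Cells that divide or grow make ribosomes at high rates, under the control of MYC and of the TOR kinase. The messengers of these proteins start with a run of pyrimidines, the 5′ terminal oligopyrimidine tract, through which TOR and the protein LARP1 set their translation and storage. In humans, loss of 1 copy of any of several of these genes causes Diamond-Blackfan anaemia, a failure of red cell precursors.

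The study asked about fetal development in relation to maternal Cyp27a1, the gene of the mitochondrial sterol 27-hydroxylase of the bile acid pathway. The 4 groups, each with 1 library, were Cyp27a1-/- fetuses of a Cyp27a1-/- mother (null mother) and Cyp27a1-/- fetuses of a Cyp27a1+/- mother (het mother), at embryonic stages E14.5 and E18.5. All fetuses were thus labelled null, and by label what differs between libraries of 1 age is the mother. Depth, cell make-up and, at the E18.5 label, the share of cells called male differed as well. Tissue labelled as fetal lung was digested with collagenase and dispase, red cells were lysed with ammonium chloride and cells were loaded on a 10x Chromium instrument, per the labels, which do not give how many fetuses went into a library. With 1 library a group there is no replicate spread and no test, so every difference below compares 2 libraries, and intervals cover counting error only.

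The libraries labelled E14.5 held 4843 cells (null mother) and 4957 cells (het mother), and those labelled E18.5 held 16517 and 17034, at library medians of 3697 to 6387 UMIs a cell. The E18.5 label of lung goes against the data: Nkx2-1, the lung epithelial transcription factor, had 1 UMI (null mother) and 4 UMIs (het mother) there, against 8344 and 2905 CPM (UMIs of a gene per 1000000 UMIs of a library or cell type) of Alb, the serum albumin gene of liver. At E14.5 Nkx2-1 had 2804 and 1935 UMIs and Alb 25 and 27. These 2 libraries are called the E18.5-labelled libraries, and their cells are those of blood formation, hepatocyte-like cells and their neighbours. The het-mother E18.5-labelled library has a wild-type tag in its name, against its genotype label, which was the one followed. Cyp27a1 itself had 19.7 (null mother) and 18.7 CPM (het mother) at E14.5 and 37.3 and 38.5 CPM at E18.5, although all fetuses are labelled null; a 3′ tag outside the deleted stretch would not check that label. The library pairs shared 93 to 164 cell barcodes, and leaving those cells out moved no cell type's member share ratio between mothers across 1.

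Cell types below are gates on marker genes: a cell needed at least 3 genes of a list and a set percentage of its UMIs on it, and a type was used with at least 50 cells in both libraries of an age. The gates took 73.6% (null mother) and 66.2% (het mother) of the E14.5 cells, and 79.2% and 84.8% of the E18.5-labelled ones. In these sums over bulk-like pools of cells, less RNA of a gene in each cell and fewer cells with it cannot be told apart.

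Of all UMIs at E14.5, the members together made up 22.9% (null mother) and 21.8% (het mother). In the E18.5-labelled libraries they made up 21.1% and 21.2%. Their single shares were far from equal although the proteins stand in near equal numbers in a ribosome. Over all libraries, 77 members each held at least 0.1% of the members' UMIs, with a median of 1.22%. Rpl13, Rpsa, Rps2 and Rps27a were among the highest. The lowest of the 77, Rpl27, held 0.140%, and the highest below the line, Rpl39l, held 0.000595%. UMIs count 3′ ends and were not divided by transcript length, and how well a 3′ end is captured differs between genes, so these ranks are levels in the files and not numbers of transcripts. Rpl13, of the large subunit, had 6346 (null mother) and 6549 CPM (het mother) at E14.5 and 5905 and 6144 CPM at E18.5. Rpsa, the laminin receptor gene that doubles as a small subunit protein, had 5384 and 5305 CPM at E14.5 and 5067 and 5127 CPM at E18.5. Rps2 had 5471 and 5875 CPM at E14.5 and 4777 and 4589 CPM at E18.5. Rps27a had 4866 and 4705 CPM at E14.5 and 5027 and 4967 CPM at E18.5. Among these 4 members the gap between the libraries of an age was widest for Rps2 at E14.5, which was lower with the null mother. Rpl3l and Rpl39l, described with the paralogs at the end, stayed below 2 CPM in every library.

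At E14.5 the share of UMIs on ribosomal protein genes was highest in epithelium and lowest in haemoglobin-rich erythroid cells. Epithelium gave 25.4% of its UMIs to members (null mother, 562 cells) and 23.5% (het mother, 376 cells). Mesenchyme gave 23.9% and 22.6%, and endothelium 23.4% and 22.8%. Macrophages followed with 21.3% and 19.3%, and smooth muscle with 20.1% and 17.3%. Heart muscle, with 50 and 92 cells of low depth, gave 15.1% and 14.8%, and 7.24% and 8.57% of its UMIs were mitochondrial. Heart muscle thus lay below the 5 types from epithelium to smooth muscle in both libraries. Haemoglobin-rich erythroid cells gave 2.17% and 2.28% to members and 88.8% and 86.9% to haemoglobin genes. With haemoglobin and mitochondrial genes taken out of the total, the share of these cells was 20.1% and 17.9%, and the highest share of the 7 types stood 1.60 (null mother) and 1.5 times (het mother) over the lowest, against 11.7 and 10.3 times before.

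In percentage points the E18.5-labelled libraries spread more widely, over 14 types against 7 at E14.5, and the order ran along blood cell stages. As highest over lowest share of all UMIs, the spread at E14.5 was the wider. Kit Cd34 progenitors gave 34.3% (null mother) and 34.8% (het mother) of their UMIs to members, and early erythroid cells 34.0% and 35.1%, the highest shares in the data, in exchanged order between the 2 libraries. Early neutrophil precursors gave 28.5% and 30.9%. Pro-B and pre-B cells gave 26.9% and 27.7%, and B cells without surrogate light chain 26.2% and 26.9%. Endothelium gave 24.3% and 24.2%, megakaryocytes 23.2% and 23.4%, and mesenchyme 21.3% and 23.2%. Monocytes gave 22.3% and 25.2%, below endothelium in the null-mother library and above it in the het-mother library. Macrophages gave 17.9% and 19.0% and hepatocyte-like cells 14.3% and 15.8%. The lowest were mature neutrophils at 3.98% and 3.67%, with specific-granule neutrophil precursors at 8.04% and 7.94%, so the neutrophil line alone covered much of the range.

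**Figure D1:**
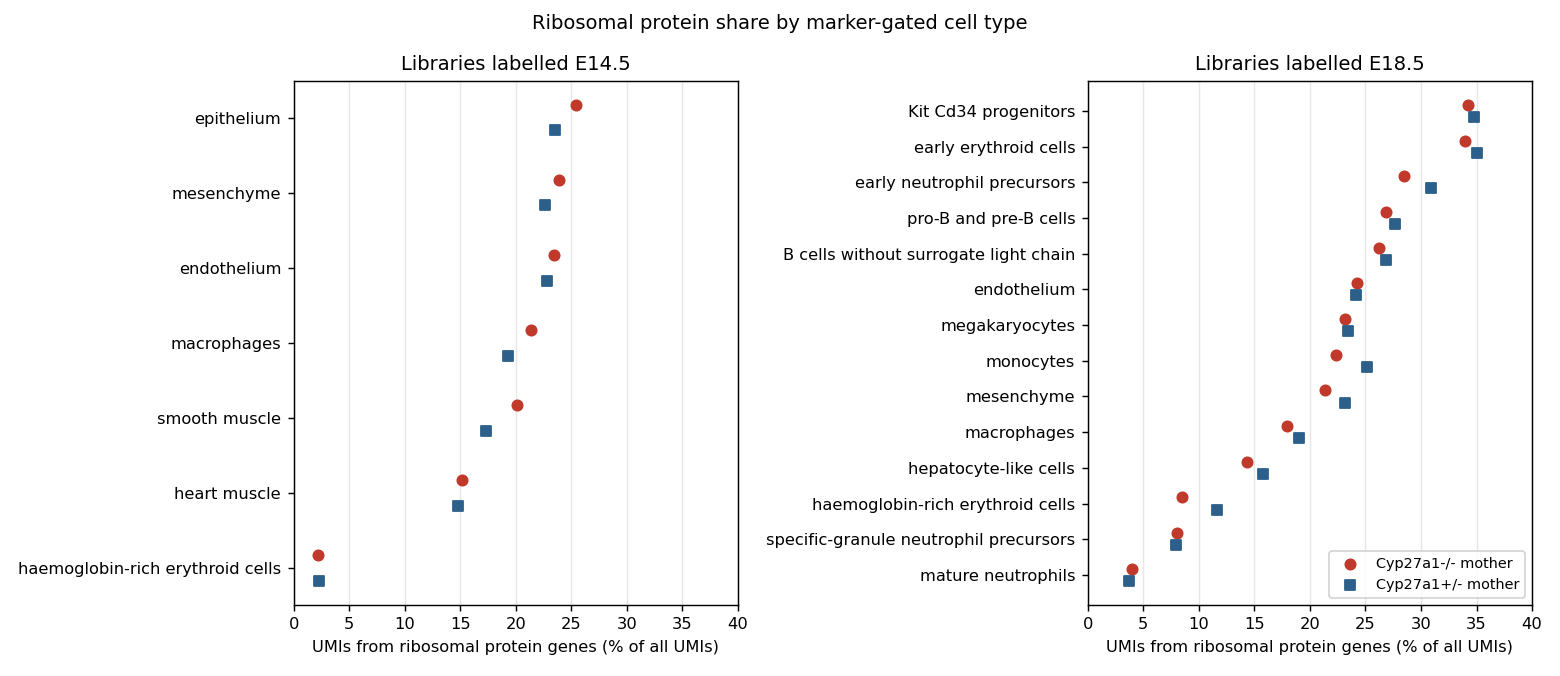
Percent of all UMIs on the 80 ribosomal protein genes (horizontal axis) in each marker-gated cell type (vertical axis), for the null-mother and the het-mother library at each age. The points at the E18.5 label run between 34.3% and 34.8% in Kit Cd34 progenitors and 3.98% and 3.67% in mature neutrophils (null mother, het mother).

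The 2 subunits did not keep 1 ratio in all cell types. Large subunit members had 1.31 (null mother) and 1.30 times (het mother) the UMIs of small subunit members in heart muscle and 1.29 and 1.28 times in smooth muscle. At the E18.5 label the ratio was 1.28 and 1.29 in hepatocyte-like cells and 1.21 and 1.22 in early erythroid cells. It was 1.16 and 1.14 in early neutrophil precursors, 1.06 and 1.06 in specific-granule precursors and 1.04 and 1.01 in mature neutrophils. The ratio thus stood in the same order in both libraries along the 3 neutrophil stages, with the lowest values in the mature cells.

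Neutrophils are made in stages: early precursors fill the primary granules, the next stage fills the specific granules, and mature neutrophils have left the cell cycle. An early neutrophil precursor held on average 3697 (null mother) and 3835 (het mother) member UMIs, a specific-granule precursor 584 and 475, and a mature neutrophil 130 and 102. Of the 77 members measured in mature neutrophils against early precursors, 77 were lower by at least 2-fold in both libraries. Over all genes tested there, 60% (null mother) and 52.9% (het mother) were lower by that much, and the median log2 difference was -2.93 and -3.21 over members against -1.42 and -1.17 over all genes. Between specific-granule and early precursors, 77 of 77 were again lower by at least 2-fold, against 36.4% and 34.2% of all genes. Between mature neutrophils and specific-granule precursors 46 and 58 of 77 were lower by that much, against 29.5% and 28.9% of all genes. These stages hold fewer UMIs a cell as they advance, with medians of 13046.5 and 12628 in early precursors, 6552 and 5315 in specific-granule precursors and 2663 and 2466.5 in mature neutrophils. CPM is relative to each type's total, and the 9 genes of the marker list alone took 9.24% and 9.38% of it in mature neutrophils. Stfa2l1, Stfa1 and BC100530 are on that list but were not used in the gate.

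Members did not differ by 1 common factor. Rps9, an early-binding protein of the small subunit, had 1721 CPM in mature neutrophils against 4430 CPM in early precursors (null mother) and 1925 against 5074 CPM (het mother), 2.57- and 2.64-fold lower and the least of the 77. Rps27a, made as a fusion with ubiquitin, had 2418 against 7425 CPM (null mother) and 2596 against 8405 CPM (het mother), 3.07- and 3.24-fold lower. Rps27, a zinc-finger protein of the small subunit, was 3.12- and 3.03-fold lower, and Rpl9 3.95- and 4.49-fold lower. At the other end Rpl12, a protein at the base of the stalk where elongation factors bind, had 225 against 3304 CPM (null mother) and 242 against 4161 CPM (het mother), 14.7- and 17.2-fold lower. Rps2 had 448 against 6162 CPM and 333 against 6795 CPM, 13.8- and 20.4-fold lower, and Rpl3, next to the peptidyl transferase centre, was 14.3- and 20.3-fold lower. The gene at each end differed between libraries only at the far end, where Rpl12 led in the null-mother library and Rps2 in the het-mother library.

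Genes that work with the members were also lower in mature neutrophils. Of 16 partners, elongation factors and other genes whose messengers are known to carry the same 5′ tract, 15 were lower by at least 2-fold in both libraries, against 60% (null mother) and 52.9% (het mother) of all genes, with median log2 differences of -2.87 (null mother) and -3.10 (het mother). Eef1a1, the factor that brings charged tRNA to the ribosome, had 599 against 5110 CPM (null mother) and 504 against 4576 CPM (het mother), 8.53- and 9.09-fold lower. The exception was Fau, which encodes small subunit protein eS30 fused to a ubiquitin-like protein: it had 2873 against 5468 CPM and 3056 against 6034 CPM, 1.90- and 1.97-fold lower. Genes of ribosome biogenesis, summed over 28, had 428 and 316 CPM in mature neutrophils against 4399 and 4391 CPM in early precursors. Mitochondrial ribosomal protein genes, which serve a separate ribosome, had 2068 and 1898 CPM against 8662 and 8772 CPM. Mxd1, which binds MAX in place of MYC, had 548 against 24.1 CPM (null mother) and 795 against 30.8 CPM (het mother), 22.7- and 25.8-fold higher in mature neutrophils, and was singled out after its values were seen.

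**Figure D2:**
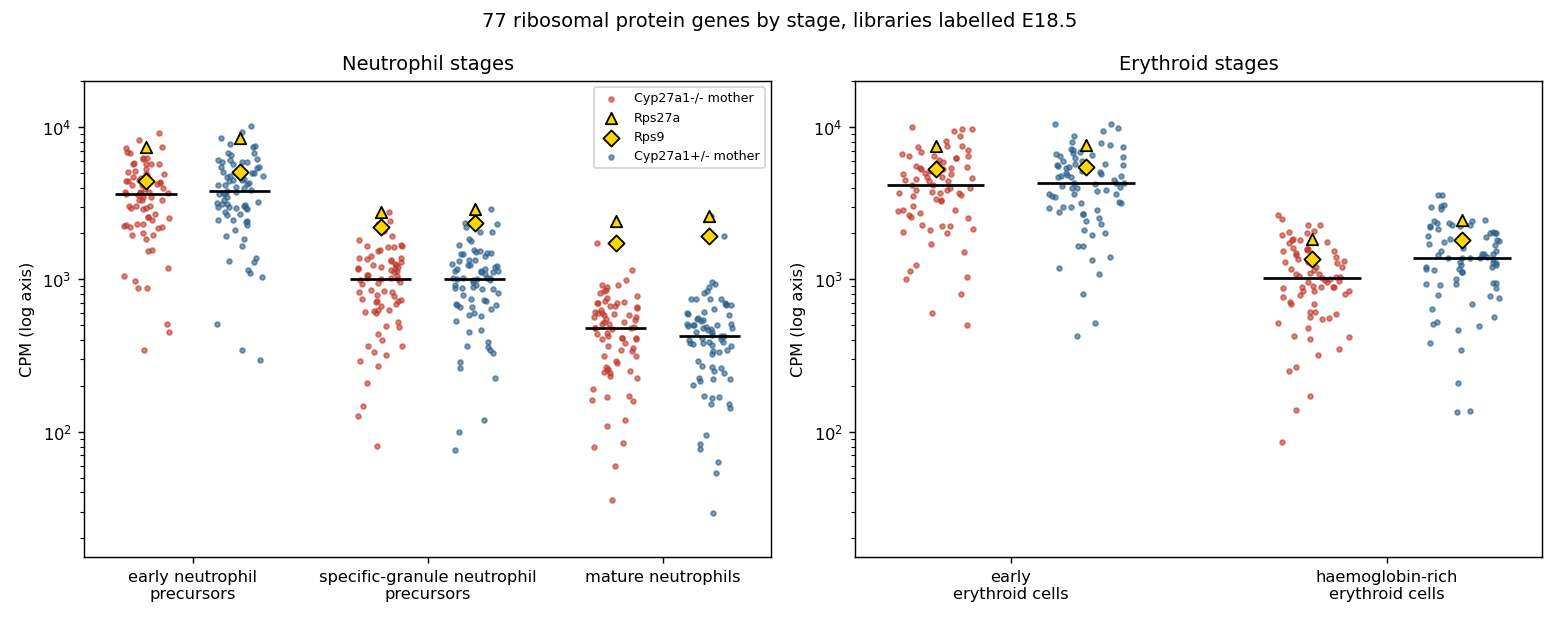
CPM (log axis) of 77 ribosomal protein genes along the neutrophil stages (left panel) and erythroid stages (right panel) of the E18.5-labelled libraries, with the null-mother library left of the het-mother library at each stage; points are genes, bars are medians over genes, and Rps27a and Rps9 are marked. In mature neutrophils Rps27a, at 2418 (null mother) and 2596 CPM (het mother), and Rps9, at 1721 and 1925 CPM, stand above all other members.

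In red cell precursors the members were lower late, as most other transcripts were. Haemoglobin-rich erythroid cells, in which haemoglobin genes held 55.7% (null mother) and 56.7% (het mother) of UMIs, gave 8.50% and 11.6% to members, against 34.0% and 35.1% in early erythroid cells. Of 77 members, 77 were lower by at least 2-fold in both libraries, against 66.4% and 72.4% of all genes, with median log2 differences of -2.01 and -1.61 against -1.53 and -1.52 over all genes. With haemoglobin and mitochondrial genes taken out, the share of the haemoglobin-rich cells was 20.1% and 27.8%. The least lower were Rps29 at 2.53- and 2.41-fold and Rpl41 at 2.75- and 2.29-fold. Rps19, the gene most often hit in human Diamond-Blackfan anaemia, had 1542 against 5411 CPM (null mother) and 1937 against 5413 CPM (het mother). Rpl5, which carries 5S RNA into the ribosome together with Rpl11, had 553 against 2859 CPM and 947 against 3231 CPM. The haemoglobin-rich gate is wide: its cells ran between 1.82% and 14.4% (null mother) and between 1.02% and 22.2% (het mother) of UMIs on members at the 10th and 90th percentiles.

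Other neighbouring types differed less. Hepatocyte-like cells against endothelium had 19 (null mother) and 9 (het mother) of 77 members lower by at least 2-fold, below the 39.6% and 45.2% of all genes. Of the 77, 75 and 73 lay below 0. The median log2 differences were -0.74 and -0.61 over members and -0.50 and -0.80 over all genes. Rps27l, a p53-induced paralog of Rps27, stood on the other side: it had 484 against 267 CPM (null mother) and 470 against 248 CPM (het mother), higher in hepatocyte-like cells. Macrophages against monocytes had 0 of 77 lower by at least 2-fold, against 16.5% and 22.1% of all genes. The medians were -0.30 and -0.42 over members and -0.20 and -0.35 over all genes. B cells without surrogate light chain against pro-B and pre-B cells had 1 of 78 lower, Rpl3l, against 10.9% and 8.96% of all genes. At E14.5 heart muscle against mesenchyme had 0 of 77 lower by at least 2-fold, against 19.7% and 24% of all genes. All 77 lay below 0, with medians of -0.65 and -0.61, but the medians over all genes were also below 0, at -0.41 and -0.52. Smooth muscle against mesenchyme also had 0 of 77, against 8.56% and 8.54% of all genes. Its medians were -0.26 and -0.39 over members and -0.12 and -0.16 over all genes.

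Words that fit the 5′ tract known from these messengers were looked for at their gene starts. RefSeq windows of 300 bases around the start, on GRCm38.p6, were matched by symbol for 60 members, 72 windows in all. The searched stretch ran 25 bases to each side of the annotated start, on the sense strand, for the words CTTTCC, then CTCTTT, and last the word CTTTTC, which can overlap each other. CTTTCC was in 15.3% of member windows against 2.46% of the 32851 windows of all genes, CTCTTT in 12.5% against 1.93%, and CTTTTC in 6.94% against 1.77%. At least 1 of the 3 was in 27.8% against 5.55%. With the reverse strand counted too, CTTTCC was in 16.7% against 4.68%. CCGGAAG, the core that ETS-family factors bind, was on either strand of the whole window in 36.1% of member windows against 8.86% of all. TATAAA was in 0 of 72 windows over the 50 bases before the annotated start against 2.63% of all. It did stand after that start in windows of Rplp0, Rps2 and Rpl36a, so this count depends on where the search ended. A match is a description of the letters and no site. The 5 windows below hold a match and belong to members named for their values, with the match in capitals and the annotated start at the 26th base.
Rps9, chr7:3704016-3704065 on the plus strand: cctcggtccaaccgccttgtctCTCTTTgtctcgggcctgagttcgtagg
Rps27, chr3:90213624-90213673 on the minus strand: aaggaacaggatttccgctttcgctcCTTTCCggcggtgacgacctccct
Rpl12, chr2:32961687-32961736 on the plus strand: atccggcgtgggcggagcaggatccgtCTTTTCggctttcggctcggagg
Rpl35, chr2:39005107-39005156 on the minus strand: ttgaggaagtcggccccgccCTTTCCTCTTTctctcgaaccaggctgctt
Rpl38, chr11:114668555-114668604 on the plus strand: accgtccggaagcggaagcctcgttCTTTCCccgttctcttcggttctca

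For comparison, the windows of Rpl27 and Rpl10, both members whose values differ between the mothers at the E18.5 label, held none of the 3 words. Rps9, least lower in mature neutrophils, and Rpl12, among the most lower there, both hold a word, so its presence did not separate these members.
Rpl27, chr11:101442220-101442269 on the plus strand: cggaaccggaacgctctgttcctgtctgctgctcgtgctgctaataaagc
Rpl10, chrX:74270791-74270840 on the plus strand: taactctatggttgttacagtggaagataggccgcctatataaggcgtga

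Within the members, the make-up of their UMIs also differed between cell types. Each member's share of the members' UMIs takes out how much of the cell goes to ribosomal protein messengers. At E14.5 the highest share over the lowest, across 7 types, had a median of 1.30-fold over 77 members, and 3 members reached 2-fold in both libraries. Across the 14 types of the E18.5 label the median was 1.54-fold and 11 members reached 2-fold. The distance between the profiles of 2 types had a median of 0.112 (null mother) and 0.113 (het mother) at E14.5 and 0.185 in both libraries at the E18.5 label, as the median absolute log2 difference in member shares. The same type in the 2 libraries of an age lay 0.0850 apart at E14.5 and 0.0839 at the E18.5 label, so the difference between types was the larger at the E18.5 label and only slightly larger at E14.5.

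Of the members named here for the E18.5 label, several had their highest or lowest share in mature neutrophils. Rps27a made up 6.08% (null mother) and 7.07% (het mother) of member UMIs in mature neutrophils, against 1.86% and 1.74% in B cells without surrogate light chain. Rps9 made up 4.32% and 5.24% in mature neutrophils, against 1.37% and 1.44% in hepatocyte-like cells. Rps27 made up 0.706% and 0.937% there, against 0.259% and 0.285% in megakaryocytes, and Rpl9 made up 2.11% and 2.44%, against 0.994% and 1.01% in hepatocyte-like cells. Rps2 and Rpl10a had their lowest shares in mature neutrophils: Rps2 had 2.86% and 2.67% in early erythroid cells against 1.12% and 0.905% in mature neutrophils, and Rpl10a 1.32% and 1.29% in Kit Cd34 progenitors against 0.628% and 0.551%. That the same types were highest and lowest in both libraries for each of these members was set by the rule that named them. Of the 77 members, 46 had the same extreme types in both libraries at this label. Rps27l was instead highest in hepatocyte-like cells, at 0.338% and 0.298%, against 0.0993% and 0.0972% in B cells without surrogate light chain. Rps29, a small zinc-binding protein of the small subunit, was highest in macrophages at 1.34% and 1.84% and lowest in early erythroid cells at 0.597% and 0.792%.

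At E14.5 several of the named members had their extremes in haemoglobin-rich erythroid cells or macrophages. Rpl41, the shortest of the ribosomal proteins, made up 4.40% (null mother) and 3.90% (het mother) of member UMIs in haemoglobin-rich cells, against 1.63% and 1.40% in macrophages. Rps2 made up 5.83% and 6.38% in haemoglobin-rich cells, against 2.07% and 2.38% in smooth muscle. Rps29 was highest in macrophages at this age too, at 1.47% and 1.12%, against 0.964% and 0.688% in mesenchyme.

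The acidic stalk and the 5S particle, 2 parts of the large subunit with known tasks, were followed by name. Rplp0, Rplp1 and Rplp2 form the stalk that calls in elongation factors. Rplp0 made up 4.08% (null mother) and 4.21% (het mother) of member UMIs in haemoglobin-rich cells at E14.5, against 2.19% and 2.24% in macrophages, and 2.42% and 2.50% in haemoglobin-rich cells at the E18.5 label, against 1.38% and 1.26% in hepatocyte-like cells. Rplp1, its partner in the stalk, was also highest in haemoglobin-rich cells at E14.5, at 2.73% and 2.44%. At the E18.5 label Rplp1 was highest elsewhere, in macrophages of the null-mother library at 2.91% and in hepatocyte-like cells of the het-mother library at 2.98%, and lowest in specific-granule precursors in both libraries. Rplp2 kept a narrower range at the E18.5 label, 1.60- (null mother) and 1.34-fold (het mother) between its highest and lowest type. Rpl5 and Rpl11, which with 5S RNA hold back MDM2 and so free p53 when ribosomes fail to assemble, varied by at most 1.62- and 1.27-fold over the types of the E18.5-labelled libraries.

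**Figure D3:**
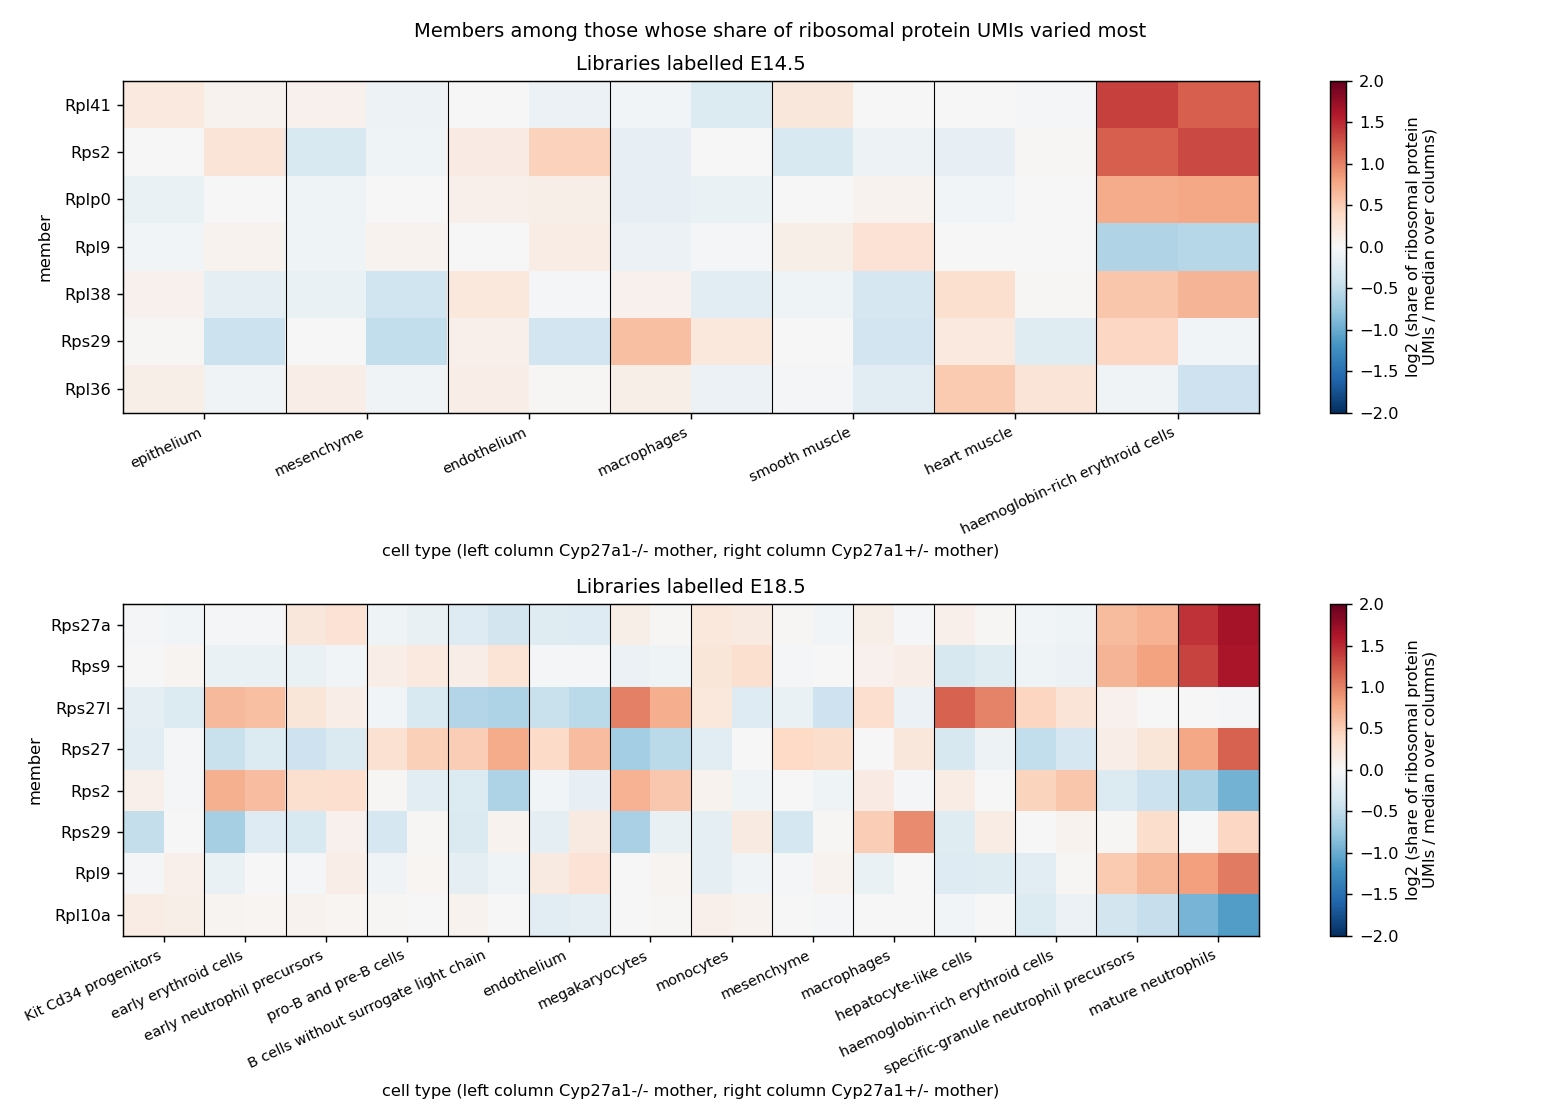
Heat map of the share of ribosomal protein UMIs held by members among those that varied most (vertical axis) in each cell type (horizontal axis, null-mother column left of the het-mother column), as log2 of the share over its median across columns. Rps27a and Rps9 are far above their medians in mature neutrophils, where Rps27a holds 6.08% (null mother) and 7.07% (het mother) of member UMIs.

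In the comparison of mothers the member share differed little, and its median ratio over cell types lay above 1 at E14.5 and below 1 at the E18.5 label; the difference between the ages was not tested. Over all gated cells, by contrast, the median log2 ratio of members was above 0 at both ages, at 0.07 and 0.03. At E14.5 the member share was higher with the null mother in 6 of 7 types, with ratios between 0.952 in haemoglobin-rich erythroid cells, the exception, and 1.16, and a median of 1.06. In the E18.5-labelled libraries it was higher in 3 of 14 types, with ratios between 0.732 and 1.08 and a median of 0.969; the 3 were mature neutrophils at 1.08, specific-granule precursors at 1.01 and endothelium at 1.00, whose counting interval takes in 1. All 3 were below 1 in cells of 5000 to 20000 UMIs, at 0.831, 0.964 and 0.936, and in cells of 1000 genes or more with less than 10% mitochondrial UMIs, at 0.924, 0.976 and 0.991. The greatest ratio at E14.5 was that of smooth muscle, where cells held a median of 12072 UMIs (null mother) and 4066 UMIs (het mother). Macrophages, with 16013.5 and 5854, had a ratio of 1.11. Epithelium, at nearly equal depth with 20779 and 20389.5 UMIs, had a ratio of 1.08, and mesenchyme, with 10508 and 9264, a ratio of 1.06. With all cells thinned to 1000 UMIs the median ratio was 1.07 at E14.5 and 0.977 at the E18.5 label, and in cells of 5000 to 20000 UMIs it was 1.07 and 0.924.

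Gene by gene, at E14.5 over all gated cells, 6 of 77 members were higher by at least 25% with the null mother and 0 were lower by at least 20%, the same fold downwards. Over all genes 11.9% were higher and 9.88% lower by that much, and the median log2 ratio was 0.07 over members and -0.05 over all genes, so the count of members is below the background share. Rps29 had 2277 CPM (null mother) and 1541 CPM (het mother), a ratio of 1.48 (95% counting interval 1.46 to 1.49). Rps27 had 990 and 746 CPM, a ratio of 1.33, and Rpl35, at the exit of the peptide tunnel, 1060 and 815 CPM, a ratio of 1.30. Rpl38, known for its part in the patterning of the mouse skeleton, had a ratio of 1.29, and Rps21 a ratio of 1.28. At the low end stood Rpl4 at 0.919, Rps2 at 0.933, Rpl3 at 0.934, Rpl5 at 0.944 and Rpl7a at 0.949, none past that fold.

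Single cell types showed the same members. Rps29 was higher with the null mother by at least 25% in 7 of 7 types, with ratios between 1.31 in haemoglobin-rich erythroid cells and 1.53 in smooth muscle. In epithelium Rps29 had 2508 CPM (null mother) and 1702 CPM (het mother), and in mesenchyme 2301 and 1555 CPM. Rps27 was also higher by that much in 7 of 7 types, with 1114 and 845 CPM in epithelium and 1089 and 797 CPM in mesenchyme. Rpl35 was higher by that much in 6 of 7 types, all but heart muscle, where its ratio was 1.08. Smooth muscle had 17 of 77 members higher by at least 25% against 11.9% of its genes, macrophages 12 against 17.7%, epithelium 8 against 11.6% and mesenchyme 8 against 7.94%.

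**Figure D4:**
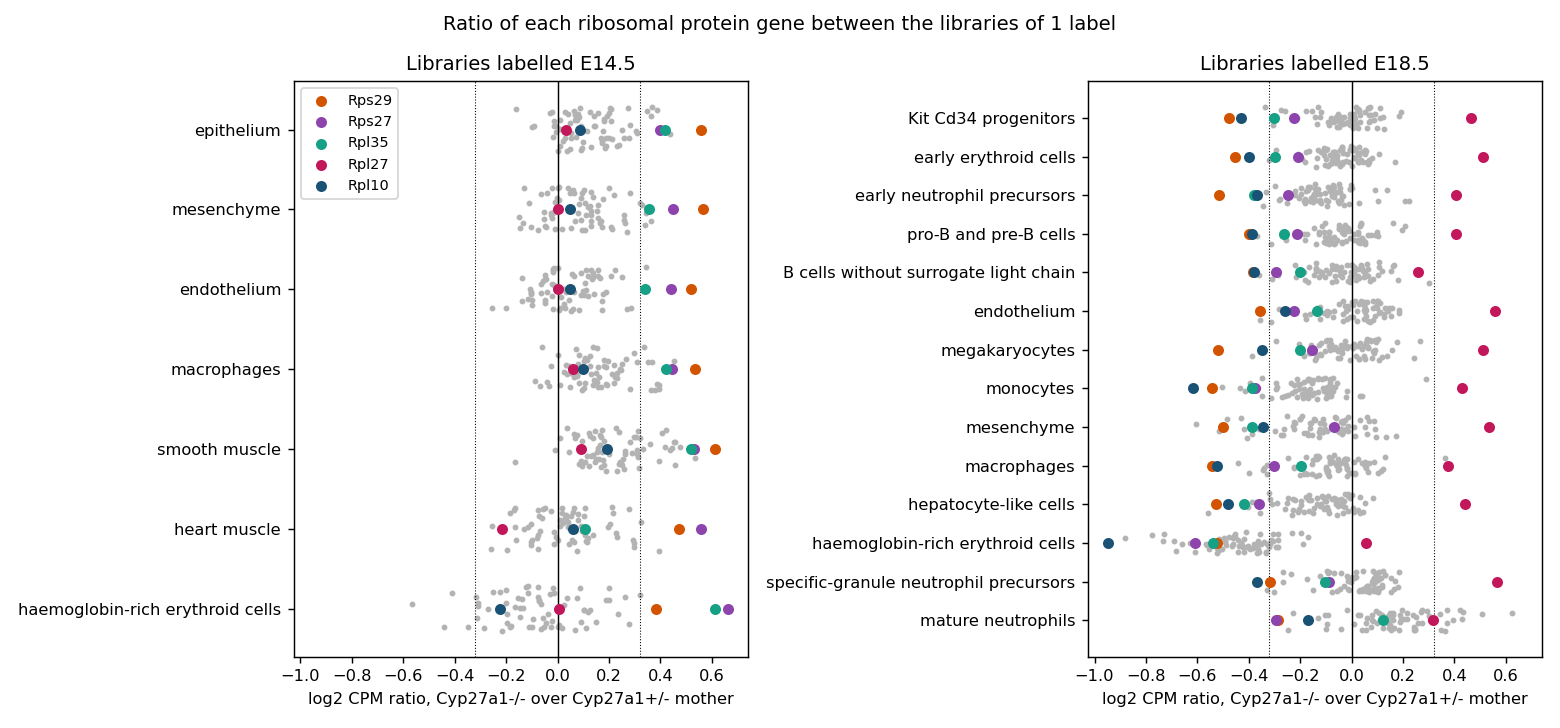
Log2 ratio of CPM, null-mother over het-mother library (horizontal axis), of each measured ribosomal protein gene in each cell type (vertical axis); grey points are members, 5 members are coloured and dotted lines mark 25% higher and 20% lower. Rps29 lies above 0 in 7 of 7 types at E14.5 and below 0 in 14 of 14 types at the E18.5 label, and Rpl27 above 0 in 14 of 14 types there.

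At the E18.5 label the members that differed were others, or differed the other way. Over all gated cells 1 of 79 members was higher by at least 25% with the null mother and 1 was lower by at least 20%, against 28.8% and 8.4% of all genes, with medians of 0.03 over members and 0.14 over all genes. The higher one was Rpl27, a large subunit protein and the lowest of the 77 abundant members, with 345 CPM (null mother) and 235 CPM (het mother), a ratio of 1.47 (95% counting interval 1.44 to 1.49). The lower one was Rps29, with 1493 and 1886 CPM, a ratio of 0.791 (95% counting interval 0.786 to 0.797); its log2 ratio was -0.34 with all gated cells, but fell short of that fold at -0.28 when cells over the 95th UMI percentile were left out and at -0.25 with marker cuts doubled. With median-of-ratios scaling, which takes out the 0.14 shift of all genes, 1 member was higher and 6 were lower, and the members' median was -0.10. The share of all genes past that fold under this scaling is not given here, so these counts have no background beside them. After Rpl27 came Rps27l at 1.19, Rpl29 at 1.17, Rpl36 at 1.12 and Rpl32 at 1.12, none past that fold. In cells of 5000 to 20000 UMIs the log2 ratios of these 4 were -0.023, -0.0021, -0.067 and -0.063, so their side of 0 was not kept in that depth window. Before Rps29 at the low end came Rpl3l at 0.822, whose counting interval of 0.639 to 1.06 takes in 1 and whose log2 ratio was 0.11 in cells of 1000 genes or more, Rpl10 at 0.843, Rpl12 at 0.845 and Rpl35 at 0.865. Rpl27 was above 0 in 14 of 14 types and past that fold in 11, with 603 and 423 CPM in early erythroid cells, 147 and 99.6 CPM in specific-granule precursors and 411 and 279 CPM in endothelium. At E14.5 Rpl27 had 275 and 272 CPM over all gated cells, a ratio of 1.01. Rps29 was below 0 in 14 of 14 types and past that fold in 12, with 2182 and 3119 CPM in early neutrophil precursors and 1153 and 1663 CPM in hepatocyte-like cells.

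Further members differed in 1 direction across all or nearly all types of the E18.5-labelled libraries, and only some are given here. Rpl10, on the X chromosome and needed for the subunits to join, was below 0 in 14 of 14 types and lower by at least 20% in 12, with a median log2 ratio of -0.38. In monocytes Rpl10 had 1828 CPM (null mother) and 2804 CPM (het mother), and in early erythroid cells 2249 and 2967 CPM. Cells called male were 3875 of 16517 (null mother) and 5395 of 17034 (het mother) in these libraries. In early erythroid cells they were 551 of 1228 and 768 of 1093, so the make-up by sex also differed. Within male cells the log2 ratio of Rpl10 over all gated cells was -0.41, against -0.25 over all. The 3 other X-linked members, Rpl39, Rps4x and Rpl36a, had log2 ratios of 0.06, 0.07 and 0.15 over all gated cells. Rpl12 was below 0 in 14 of 14 types, with a median of -0.36. Rps27 was below 0 in 14 of 14 types, with a median of -0.24, and Rpl35 in 13 of 14, with a median of -0.28. Other members were also below 0 in 14 of 14 types, among them Rps25 with a median of -0.31 and Rpl23a with -0.27. The share of all members was itself higher with the null mother in only 3 of 14 types.

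Haemoglobin-rich erythroid cells stood apart at the E18.5 label, with 64 of 77 members lower by at least 20% with the null mother against 15.3% of all genes, and a median log2 ratio of -0.44. Their member share was 8.50% (null mother) and 11.6% (het mother), and a ratio of 0.732 was the lowest of the 14 types. The median cell went the other way, at 5.04% and 2.35%, and the mean over cells gave a ratio of 1.12. The summed share weights cells by their UMIs, and the het-mother library had the wider spread of cells within the gate. The highest counts of members lower by that much in the other types were those of mesenchyme with 12 of 77 against 15.5% of its genes, monocytes with 11 against 10.6% and hepatocyte-like cells with 10 against 6.17%. Mature neutrophils had 11 of 77 higher by that much against 8.26%, with Rps20 at 587 and 381 CPM and a ratio of 1.54.

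Lists beside the members were counted in the same way, against 11.9% of all genes higher and 9.88% lower at E14.5 and 28.8% and 8.4% at the E18.5 label. At E14.5, over all gated cells, 1 of 16 elongation factors and partners was higher by at least 25% with the null mother and 0 lower by at least 20%, 0 of 28 biogenesis genes were higher and 3 lower, and 0 of 27 initiation factors passed in either direction. Of 14 genes of the MYC family and TOR control, 0 were higher and 1 was lower. Of 18 members known from human Diamond-Blackfan anaemia, 3 were higher and 0 lower, with a median log2 ratio of 0.10. In the E18.5-labelled libraries 12 of 28 biogenesis genes were higher and 0 lower, with a median of 0.30, and 34 of 77 mitochondrial ribosomal protein genes were higher and 0 lower, with a median of 0.30. All genes there had a median of 0.14, the partners 0.01, the initiation factors 0.12 with 2 of 27 higher and 0 lower, the MYC and TOR genes 0.14 with 2 of 13 higher and 1 lower, and the anaemia genes 0.02. The cytosolic members thus lay below the median of all genes at that label while the mitochondrial ones lay above it, over pools of different cell make-up: hepatocyte-like cells were 2333 (null mother) and 788 (het mother), and haemoglobin-rich cells 2609 and 5361.

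Rpl3l, known as the paralog that takes the place of Rpl3 in heart and skeletal muscle, was rare and was found in blood cells. It had 313 UMIs in all 4 libraries. In pro-B and pre-B cells of the E18.5-labelled libraries Rpl3l had 61 UMIs in 57 of 1600 cells (null mother) and 55 UMIs in 51 of 1388 cells (het mother), 12.1 and 13.4 CPM. That is 3.56% and 3.67% of cells at median depths of 2169.5 and 2023 UMIs. Hepatocyte-like cells, deeper at 5669 and 4347 UMIs, had it in 0.0857% and 0.127% of cells. In mature neutrophils Rpl3l had 18 and 35 UMIs, 9.56 and 11.6 CPM. Heart muscle at E14.5 had 0 UMIs (null mother) and 1 UMI (het mother) of Rpl3l in 50 and 92 cells. A count of 0 in the null-mother cells allows up to 8.98 CPM there, and 1 UMI in the het-mother cells is 1.62 CPM, so levels near 1 CPM were not detectable at this depth.

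**Figure D5:**
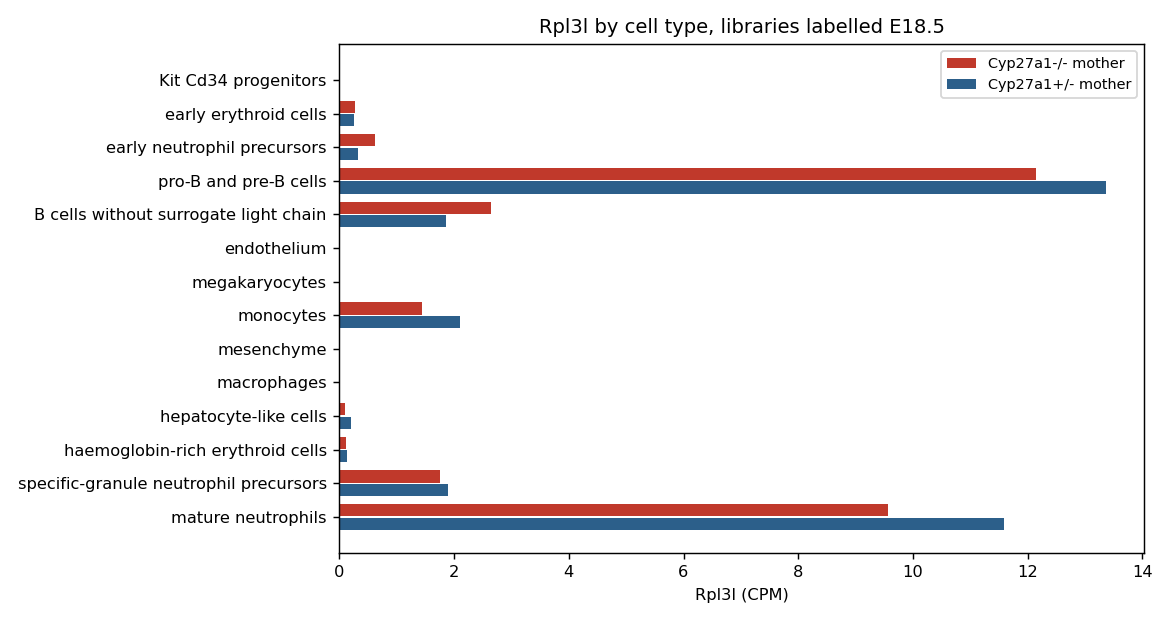
Rpl3l in CPM (horizontal axis) by cell type (vertical axis), null-mother bar above the het-mother bar, E18.5-labelled libraries. The longest bars are those of pro-B and pre-B cells, at 12.1 and 13.4 CPM, and of mature neutrophils, at 9.56 and 11.6 CPM (null mother, het mother).

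The genomic neighbour of Rpl3l bears on how its UMIs can be read. Rpl3l lies at chr17:24727820-24736143 and Msrb1, a methionine sulphoxide reductase gene, at chr17:24736642-24742778 on the same strand, 498 bases apart in the GENCODE vM21 annotation of GRCm38. Msrb1 had 1458 CPM (null mother) and 1845 CPM (het mother) in mature neutrophils, where Rpl3l had 9.56 and 11.6 CPM. In monocytes Msrb1 had 944 and 999 CPM, and Rpl3l 1.43 and 2.10 CPM. In pro-B and pre-B cells Msrb1 had 73.1 and 68.5 CPM, and Rpl3l 12.1 and 13.4 CPM. Rpl3l thus did not keep 1 ratio to Msrb1, and whether some Rpl3l UMIs come from reads at the edge of Msrb1 was not tested. B cells without surrogate light chain had 2 and 2 Rpl3l UMIs, 2.65 and 1.85 CPM.

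Other paralogs also differed between cell types. Rpl39l, known from the testis, had 405 UMIs in all, with 5.98 (null mother) and 8.02 CPM (het mother) in pro-B and pre-B cells and 8.61 and 2.23 CPM in macrophages, the last from 13 and 2 UMIs. Rpl22l1, a paralog of Rpl22 that the symbol pattern does not take in, had 1240 and 1318 CPM in early erythroid cells and 105 and 83.7 CPM in mature neutrophils. Rpl36al, a copy of Rpl36a made without introns, had 439 and 301 CPM in early erythroid cells and 398 and 300 CPM in early neutrophil precursors, higher with the null mother in both. In mature neutrophils Rpl36al had 37.7 and 17.9 CPM. Near-identical copies limit all such counts: 10 rows of ribosomal protein pseudogenes held 0.0665% as many UMIs as the members, and reads that match both a gene and its copies may have been dropped, so members with many copies are uncertain in level.

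Transcript length went with the difference between mothers at E14.5. Length was the median exonic length of a gene's basic protein-coding transcripts in GENCODE vM21, and which transcript these cells made was not checked. Across 77 members, this annotated length and the log2 ratio over all gated cells had a Spearman correlation of -0.51. That is a description across genes of 1 library pair that share depth and chemistry. The 25 shortest members, up to 624 bases, had a median of 0.18 and the 25 longest, from 937 bases, a median of 0.04. Other genes as short, 220 of them, had a median of 0.10, and over 12532 genes the correlation was -0.05. At the E18.5 label the members' correlation over all gated cells was -0.01, with medians of 0.02 and 0.03 in the short and the long group. Within single cell types there it ran between -0.22 in haemoglobin-rich erythroid cells, the only negative type, and 0.31 in early neutrophil precursors. Rps29 with 390 bases, Rps27 with 345 and Rps21 with 394 belong to the short group. By this annotated median Rpl35 with 946 bases falls in the long one, as do Rps15a with 5130 and Rps20 with 3706. These lengths may not be those of the transcripts made here.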

How the data were processed

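UMI counts for each gene in each cell, whole numbers deposited by the authors, were read from 1 matrix of 31053 genes and 43351 cells. Per the submitters' processing notes, Cell Ranger 3.0.0, Seurat 4.3.0 and mm10 were used; filters and order are not given in the sources used here. Groups came from the genotype and age labels.

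Cells were assigned by marker lists (at least 3 genes of the list and a set percent of UMIs). Stfa2l1, Stfa1 and BC100530 of the mature neutrophil list were left out of its gate. Some gates took precedence over others: heart muscle over smooth muscle and mesenchyme, mesothelium over these and epithelium, and macrophages over monocytes. Within a lineage, haemoglobin-rich came before early erythroid, mature before specific-granule neutrophils, and smooth muscle before mesenchyme. The progenitor gate gave way to any other. Other cells passing gates of several lineages were left out, doublets were not called and no other cell filter was applied. Gene totals were summed per library and cell type and divided by all UMIs (CPM, or percent). Measured genes had 50 UMIs or more in whichever library had the higher CPM. Since each group has 1 library, no test was made. Genes were counted when at least 25% higher (or, the same fold downwards, 20% lower) between mothers and when at least 2-fold apart between cell types. Intervals (95%, exact binomial) and the floor of 3 UMIs cover counting error only. Cells with Y-linked and without Xist UMIs were called male.

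Named members were, by rule, those of most varying share with the same extreme types in both libraries, the 5 highest and lowest ratios between mothers per age, the 2 highest and lowest in types of at least 200 cells, the 5 most abundant, the members under 0.1% of member UMIs, and the stalk, 5S and paralog lists. Others named for a value, among them Msrb1, Fau, Mxd1 and Rps19, were chosen after values were seen. Some genes that the rule names are not reported here. The members, lists and rules were chosen with earlier results of these data known. Promoter windows are RefSeq sequences of GRCm38.p6. Alternatives covered the denominator, gate cuts, depth, cell filters, sex, scaling, weights, minimum UMIs, pseudocount and fold. Python 3.11.15 with numpy 2.4.6, pandas 2.3.3, scipy 1.17.1 and matplotlib 3.10.9 was used, and the scripts were tested on simulated data.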

Additional observations from a re-analysis of the deposited data

Results flagged for a closer look

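By rule, 4 measures were flagged in which the libraries of the 2 ages differed between mothers in opposite directions. A cell type needed member share ratios on opposite sides of 1 at the 2 ages. A member needed all cell types on 1 side of 0 at 1 age and on the other side at the other. The difference between ages was not tested, there is 1 library in each group, and the tissues of the 2 ages are not the same. The member share of macrophages had a ratio, null over het mother, of 1.11 at E14.5 and 0.941 at the E18.5 label, at median depths of 16013.5 UMIs (null mother) and 5854 UMIs (het mother) at E14.5 and 3835 and 1752 at the E18.5 label. That of mesenchyme was 1.06 at E14.5 and 0.920 at the E18.5 label. The log2 ratio of Rps27 had a median over cell types of 0.45 at E14.5 and -0.24 at the E18.5 label. That of Rps29 had medians of 0.53 and -0.49. That every cell type of an age lay on the same side of 0 for both genes was set by the rule. Other members had opposite medians without meeting it, among them Rpl35 at 0.42 at E14.5 and -0.28 at the E18.5 label.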

How the results depend on the processing

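No paired analysis was possible because each group has 1 library. Rps29, Rps27, Rpl35, Rpl38 and Rps21 at E14.5, and Rpl27 and Rps29 at the E18.5 label, kept the direction of their ratio over all gated cells over the 15 settings in which it was computed. The log2 ratio of Rps29 ran between 0.54 and 0.62 at E14.5 and between -0.53 and -0.25 at the E18.5 label, and that of Rpl27 at the E18.5 label between 0.33 and 0.62. The median share ratio over cell types stayed above 1 at E14.5 and below 1 at the E18.5 label in all settings run, while the median log2 ratio of members at the E18.5 label changed sign under 6 of them. The cause of each change below was not tested, and counts of members stand without the share of all genes under the same setting. Values are given for E14.5 first, as median share ratio and highest over lowest share (null mother, then het mother), and then for the E18.5 label, where "types higher" counts cell types with the higher share with the null mother.

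Without haemoglobin and mitochondrial UMIs the E14.5 ratio was 1.08, the span 1.60 and 1.5 and the ratio of haemoglobin-rich cells 1.12; the E18.5 ratio was 0.961, the span 8.73 and 9.93, endothelium 0.996, 6 members were lower and the members' median was -0.13. With marker cuts doubled the E14.5 values were 1.08, 10.5 and 9.42; at E18.5 they were 0.985, 8.99 and 9.76, with 5 types higher, haemoglobin-rich cells at 1.09, megakaryocytes at 1.03 and 2 members higher. With cuts halved the E14.5 ratio was 1.05; at E18.5 the null-mother span was 8.35, megakaryocytes were at 1.01 and specific-granule precursors at 0.996, and 2 members were lower. As a mean over cells the E14.5 values were 1.04, 6.78 and 5.51; at E18.5 they were 0.972, 8.30 and 9.80, with 6 types higher, haemoglobin-rich cells at 1.12, megakaryocytes at 1.06 and mesenchyme at 1.003. Thinned to 1000 UMIs the E14.5 values were 1.07, 8.95 and 7.60; at E18.5 they were 0.977, 8.51 and 9.99, with 5 types higher, haemoglobin-rich cells at 1.07 and megakaryocytes at 1.03. With the cells over the 95th UMI percentile left out the ratios were 1.07 and 0.972, with endothelium at 0.996, 3 members higher and 0 lower at E18.5.

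In cells of 1000 genes or more with less than 10% mitochondrial UMIs the E14.5 values were 1.07, 1.26 and 1.35 over the 4 types left; at E18.5 they were 0.963, 8.21 and 7.67, with 0 types higher, mature neutrophils at 0.924, specific-granule precursors at 0.976, endothelium at 0.991, 7 members lower and a median of -0.14. In male cells the E14.5 values were 1.07, 1.09 and 1.05, with 3 of 3 types higher; at E18.5 they were 0.944, 7.89 and 8.63, with specific-granule precursors at 0.939, 8 members lower and a median of -0.14. Median-of-ratios scaling gave 6 members lower and a median of -0.10 at E18.5, and cell types at equal weights gave 2 higher, 4 lower and a median of -0.064. A minimum of 10 UMIs gave 1 member lower at E14.5. A fold of 1.5 left 0 members higher at E14.5 and 0 in either direction at E18.5. Of 2 alternatives chosen after seeing the data, leaving out shared barcodes gave 1.06 and a het-mother span of 10.5 at E14.5 and 0.963 at E18.5. Cells of 5000 to 20000 UMIs gave 1.07, 17.1 and 15.2 at E14.5, and at E18.5 0.924, 8.42 and 7.07, with 0 types higher, mature neutrophils at 0.831, specific-granule precursors at 0.964, endothelium at 0.936, 12 members lower and a median of -0.19. Minimum of 200 UMIs and a pseudocount of 10 CPM changed no call. Depth limits heart muscle, whose cells had medians of 1385 (null mother) and 1828.5 UMIs (het mother), and mature neutrophils.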
